A study of Mus musculus with 6 samples.

Results

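The HOX, PAX, TBX, GATA, SOX and FOX genes are 6 families of transcription factors that set body position, organ identity and cell lineage in the embryo. They were examined here in mouse oocytes that lack the histone demethylase LSD1. Members were all gene symbols in the count files that begin with a family name followed by a number, with a cluster or class letter between them for HOX and FOX. There were 134 such symbols of 23284 listed: 40 HOX, 10 PAX, 13 TBX, 6 GATA, 20 SOX and 45 FOX. Of these, 130 are transcription factor genes, and 4 (Foxl2os, Hoxa11as, Pax6os1 and Sox2ot) are noncoding transcripts that lie beside or across a family gene. RNA was sequenced from fully grown oocytes at the germinal vesicle (GV) stage, which have completed growth and still hold an intact nucleus. The Lsd1 KO group held oocytes deleted for Lsd1 and the Control group held oocytes of the control genotype, with 3 samples each and 100 oocytes per sample. Donor females of both groups were 4 to 6 weeks old, of mixed C57BL/6-129 background, and had received 5 IU of pregnant mare serum gonadotrophin 48 hours before collection. The sources used here do not name what drives the deletion or the number of females behind a sample.

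HOX proteins carry a homeodomain and are encoded in 4 chromosomal clusters whose gene order follows the body axis. PAX proteins bind DNA with a paired domain, TBX proteins with a T-box, GATA factors with zinc fingers, SOX proteins with a high-mobility-group box and FOX proteins with a forkhead domain. In most adult cells many of these genes are held silent by Polycomb complexes, whereas a few act in the ovary: FOXO3 restrains the activation of primordial follicles from within the oocyte, and FOXL2 and GATA4 are factors of the granulosa cells around it. LSD1, the product of Kdm1a, removes methyl groups from histone H3 and works in the CoREST corepressor complex.

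The libraries held 10764095 to 12334683 counts in Lsd1 KO and 10735422 to 13035045 counts in Control. Kdm1a was at 3.77, 2.80 and 3.23 CPM (counts scaled to library size) in the Lsd1 KO samples, against 73.9, 72.5 and 44.4 CPM in the Control samples (log2 fold change -4.28 ± 0.27, edgeR adjusted p = 4.58e-06). Which exons were deleted, and so how much of a deleted transcript the counts would still cover, is unknown here. All 10 oocyte markers, among them Gdf9, Zp3 and Figla, were at 23.5 CPM or more in every library. Of them 3 (Gdf9, Oosp1 and Dppa3) were higher and none was lower, beside 11.0% and 10.3% of all genes tested. The summed level of the 10 was 33958 to 36950 CPM in Lsd1 KO, against 21350 to 24699 CPM in Control, with no overlap. Their median log2 fold change was 0.03 and 7 were not called, so the list did not rise as a whole. Levels below are CPM after TMM scaling, a factor that corrects for differences in library composition. Fold changes are log2 of Lsd1 KO over Control, ± SE. The quasi-likelihood test of edgeR was run on all 12935 genes that passed the count filter, p was adjusted over them by Benjamini-Hochberg, and a gene passed at an adjusted p under 0.05. Means are given ± SD (n = 3 per genotype).

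Most members were silent in both genotypes. In 76 of 134 symbols (56.7%) the level lay below 1 CPM, which is 10.8 to 13.3 counts, in all 6 libraries, whereas 8973 of all 23284 symbols (38.5%) did so. Within this set, 33 members (24.6%) had 0 counts in every library, beside 18.6% of all symbols. A count of 0 still allows up to 3 counts, or 0.226 to 0.277 CPM, in a library. The share below 1 CPM was 72.5% in HOX, 60% in PAX, 53.8% in TBX, 50% in GATA, 45% in SOX and 48.9% in FOX. In these bulk samples, fewer cells that hold a transcript and less transcript per cell cannot be told apart.

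The members with no count in any library came from every family. They were 14 HOX symbols (Hoxa2, Hoxa11, Hoxa11as, Hoxb1, Hoxb5, Hoxb6, Hoxb7, Hoxb8, Hoxb9, Hoxb13, Hoxc11, Hoxc12, Hoxd3 and Hoxd4), Pax7 and Pax6os1, Tbx10 and Tbx22, Gata5, Sox14 and 13 FOX genes. The FOX genes included Foxa2, Foxb1, Foxd1, Foxd3, Foxe3, Foxf2, Foxj1 and Foxl1. Several of these direct the choice of a lineage elsewhere, such as Foxa2 in endoderm and Pax7 in muscle precursors.

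At the other end, 26 members were at 1 CPM or more in all 6 libraries, of which 13 were FOX genes. Another 29 reached 1 CPM in some libraries without separating the genotypes at that level. Of the 134 members, 3 separated at 1 CPM. Hoxa5 and Pax3 were at or above it in all Lsd1 KO libraries and below it in all Control libraries, and Hoxd8 had the opposite pattern. Over all 23284 symbols, 178 were at or above 1 CPM in the Lsd1 KO libraries only and 59 in the Control libraries only. Members at 1 CPM or more numbered 39, 31 and 43 in the Lsd1 KO libraries, against 41, 37 and 39 in the Control libraries. Without the second Lsd1 KO library (replicate 2), the one with the lowest number, the members that separated were 7 instead of 3. They were 5 without Lsd1 KO replicate 3 or Control replicate 1. Since the rule asks for every library, leaving a library out can only keep or raise this number.

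**Figure D1:**
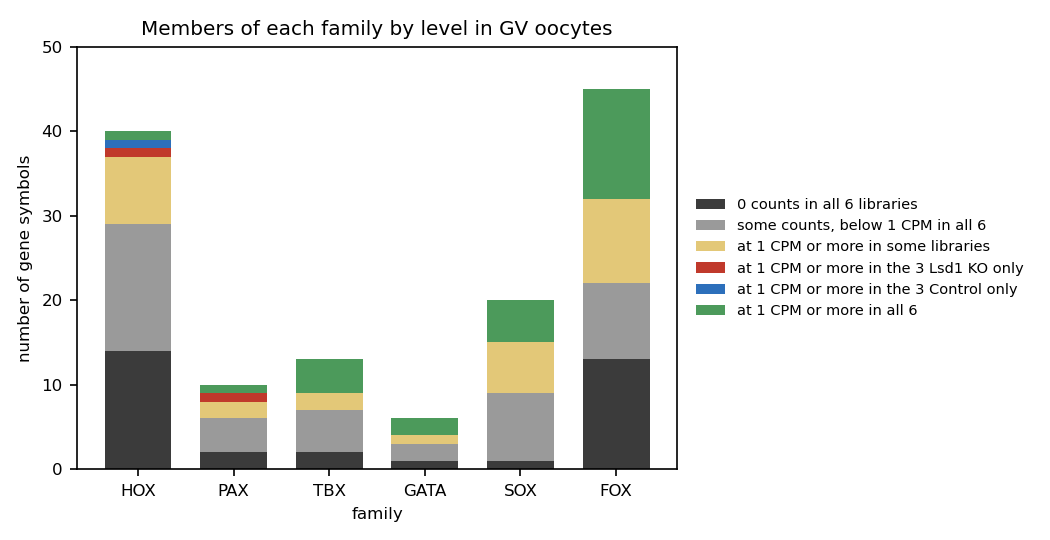
Number of gene symbols of each family (vertical axis) by their level in the 6 libraries, from 0 counts in all of them (bottom of each bar) to 1 CPM or more in all of them (top). HOX holds 29 of 40 symbols below 1 CPM in all libraries and a single one, Hoxa7, above it in all, whereas 13 of 45 FOX symbols are above it in all.

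The count filter left 40 members for the test, and 94 were too low. Of the 40, 6 were higher in Lsd1 KO (15%, where 11.0% of all genes tested were higher) and 4 were lower (10%, where 10.3% were lower). Together 25% were called, beside a background of 21.3%, so the families changed about as often as genes at large. The median log2 fold change of the 40 was -0.08, and that of all genes tested was -0.01. The members that rose were Sox6, Pax3, Tbx5, Gata3, Tbx19 and Hoxa5, and those that fell were Sox8, Gata4, Hoxd13 and Hoxd8. The HOX, GATA and SOX families had calls in both directions, PAX and TBX had rises only, and none of 17 tested FOX symbols was called. The genotypes did not overlap in 16 of 40 members (6 higher, 10 lower), beside 38.7% of all genes tested (19.5% higher, 19.1% lower). Pax3, Hoxa5, Hoxd8 and Hoxd13 entered the test through the genotype in which they are high, since the other genotype did not reach 10 counts in all of its libraries. The calls of Sox6, Pax3, Tbx5, Sox8, Gata4, Hoxd13 and Hoxd8 held with each single library left out, those of Gata3 and Tbx19 in 2 and 1 of these 6 fits, and that of Hoxa5 in none.

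**Figure D2:**
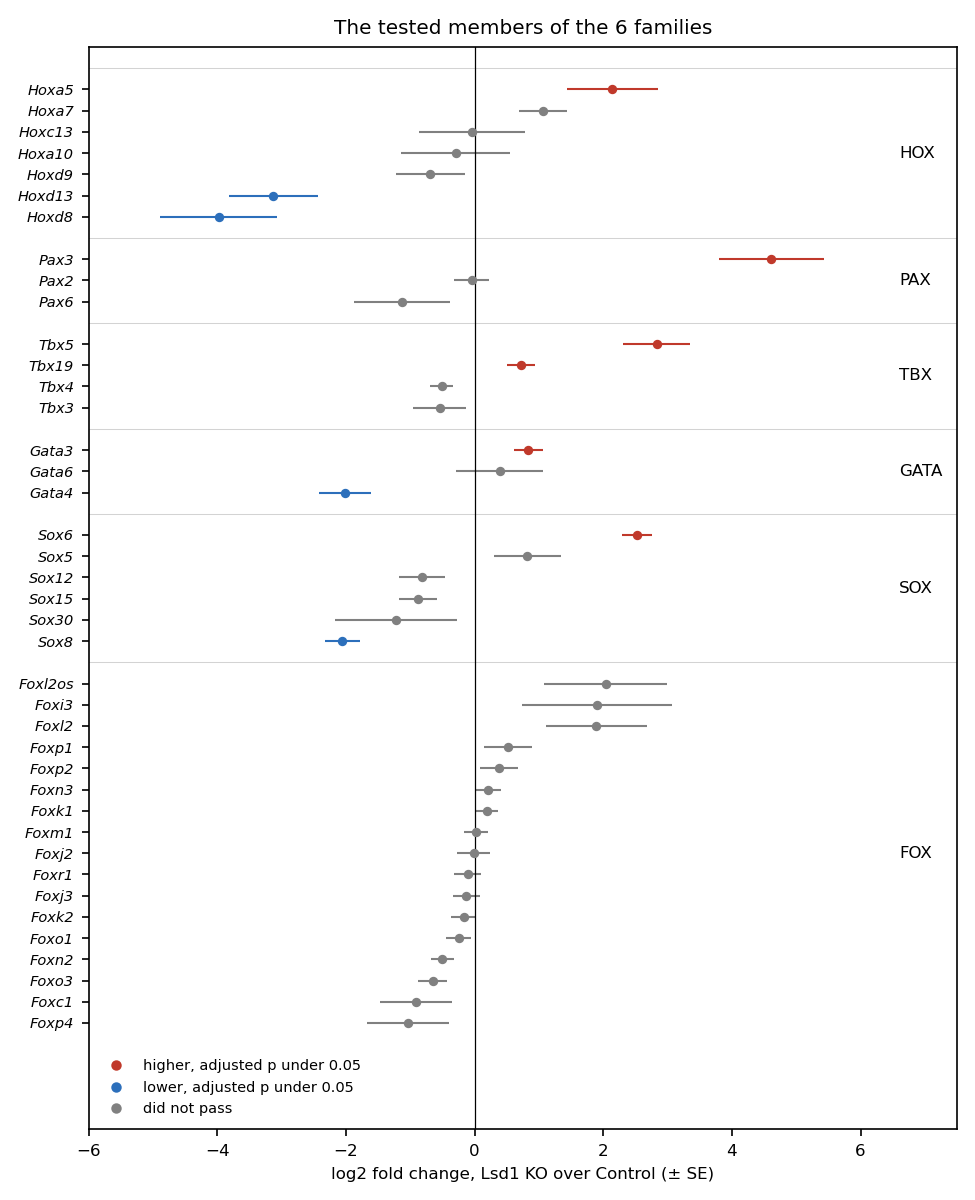
Log2 fold change (Lsd1 KO over Control, horizontal axis, bars ± SE) of the 40 tested members, by family. Pax3 lies farthest to the right at 4.62 and Hoxd8 farthest to the left at -3.98, and all 17 FOX symbols are grey, for not passing.

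**Figure D3:**
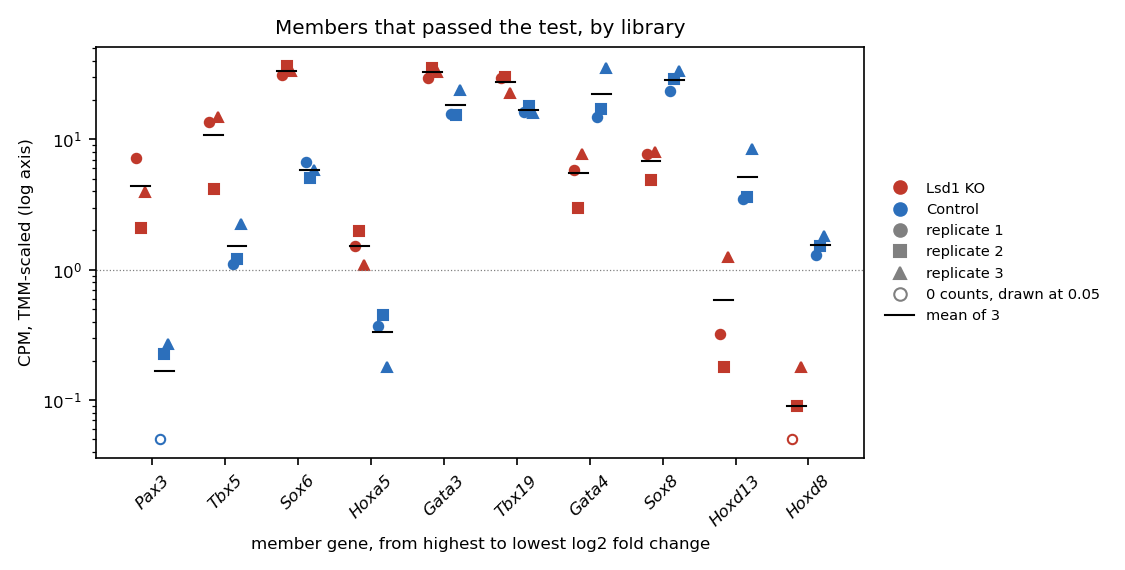
CPM on a log axis in each library of the 10 members that passed the test, with the 3 Lsd1 KO libraries left of the 3 Control libraries a line at each mean, open circles at 0.05 for libraries with 0 counts and a dotted line at 1 CPM. The genotypes are apart in all 10, by a fitted 24.5-fold in Pax3 and 1.64-fold in Tbx19. Since the test picked these genes, that adds no support to it. Over all genes tested, 38.7% were apart.

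Among the HOX genes, which pattern the body axis, 2 of 3 tested genes of the HoxD cluster fell in Lsd1 KO. In the HoxA cluster 1 of 3 tested genes rose. Over all genes tested, 11.0% were higher and 10.3% lower. These 3 called HOX genes entered the test through the genotype in which they are high, so the counts per cluster do not establish a pattern. Hoxd13, the gene of the digit and genital end of the cluster, was at 0.321, 0.180 and 1.26 CPM in Lsd1 KO, against 3.51, 3.62 and 8.40 CPM in Control. Every Lsd1 KO library lay below every Control library, and the log2 fold change was -3.13 ± 0.69 (edgeR adjusted p = 0.00809). It was -4.26 without Lsd1 KO replicate 3, the highest library of its genotype. Hoxd8, from the middle of the cluster, had 0, 1 and 2 counts in Lsd1 KO and 14, 20 and 20 counts in Control. The 3 counts of Lsd1 KO set against 54 of Control gave a ratio of 17.8 in favour of Control, with a 95% exact interval of 5.76 to 88.8 that covers counting error only (edgeR adjusted p = 0.00952). The fitted log2 fold change of -3.98 rests on those 3 counts and was -3.38 without Lsd1 KO replicate 1 and -4.82 without Lsd1 KO replicate 3. On mm9 chromosome 2, Hoxd13 spans 74506367 to 74509656 and Hoxd8 spans 74542672 to 74545990. Hoxd9, between them, was at 2.72 ± 1.54 CPM in Lsd1 KO, against 4.40 ± 1.85 CPM in Control and did not pass (log2 -0.69 ± 0.54, edgeR adjusted p = 0.391).

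Further HoxD genes were too low for the test. Hoxd1 had 0 counts in all 3 Lsd1 KO libraries and 8, 6 and 3 counts in Control. With 3 counts allowed for the Lsd1 KO group and the 17 Control counts taken as they stand, it was 5.59-fold lower in Lsd1 KO. Counting error of Control is not in that value, so it is not a lower bound. Hoxd12 likewise had 0 counts in Lsd1 KO and 1, 2 and 4 in Control. Hoxd10 and Hoxd11 had at most 2 counts in any library, and Hoxd3 and Hoxd4 had none. The summed level of the 9 HoxD genes was 3.69, 1.26 and 5.57 CPM in Lsd1 KO, against 9.99, 8.44 and 17.2 CPM in Control, with no overlap. That sum includes the called genes Hoxd13 and Hoxd8, so it adds no separate support for a change of the cluster.

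In the HoxA cluster, Hoxa5 was at 1.52, 1.98 and 1.08 CPM in Lsd1 KO, against 0.370, 0.452 and 0.181 CPM in Control. The genotypes did not overlap (log2 2.14 ± 0.71, edgeR adjusted p = 0.0478), but the call was lost with each single library left out (adjusted p 0.0765 to 0.137), with DESeq2, with limma-voom, without the low-count filter and with a replicate block. Hoxa5 spans 52151753 to 52154586 on mm9 chromosome 6, inside annotated Hoxa3 transcripts on the same strand, so that reads of the shared stretch cannot be assigned with certainty. Hoxa3 itself was too low for the test, with 14, 9 and 5 counts in Lsd1 KO and 0, 3 and 1 in Control. Hoxa7 was at 13.2, 5.77 and 16.1 CPM in Lsd1 KO, against 5.64, 5.05 and 6.05 CPM in Control. Its Lsd1 KO replicate 2 lay within the Control range, and it did not pass (log2 1.07 ± 0.38, edgeR adjusted p = 0.0618). It passed without that library (adjusted p = 0.0133).

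Not all HoxA genes followed this order. Hoxa13, the posterior end of the cluster, had 4, 7 and 6 counts in Lsd1 KO and 35, 28 and 2 in Control, so that Control replicate 3 lay below all Lsd1 KO libraries. Hoxa10 did not separate, at 0.649 ± 0.607 CPM in Lsd1 KO, against 0.801 ± 0.434 CPM in Control. The summed level of the HoxA symbols was 19.7, 10.4 and 23.2 CPM in Lsd1 KO, against 10.9, 8.66 and 8.22 CPM in Control, where Lsd1 KO replicate 2 lay below Control replicate 1. The HoxB cluster was below 1 CPM throughout, with 7 of 10 genes at 0 in all libraries and 0.0902 to 0.241 CPM in sum in Lsd1 KO against 0.0925 to 0.903 CPM in Control. Hoxb4 had 0 counts in Lsd1 KO and 1, 4 and 9 in Control. Of HoxC, Hoxc13 was tested and did not separate, with 12, 1 and 31 counts in Lsd1 KO and 11, 16 and 19 in Control. Hoxc6 had 19, 0 and 9 counts in Lsd1 KO and 1, 0 and 2 in Control, so that Lsd1 KO replicate 2 again lay with Control.

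**Figure D4:**
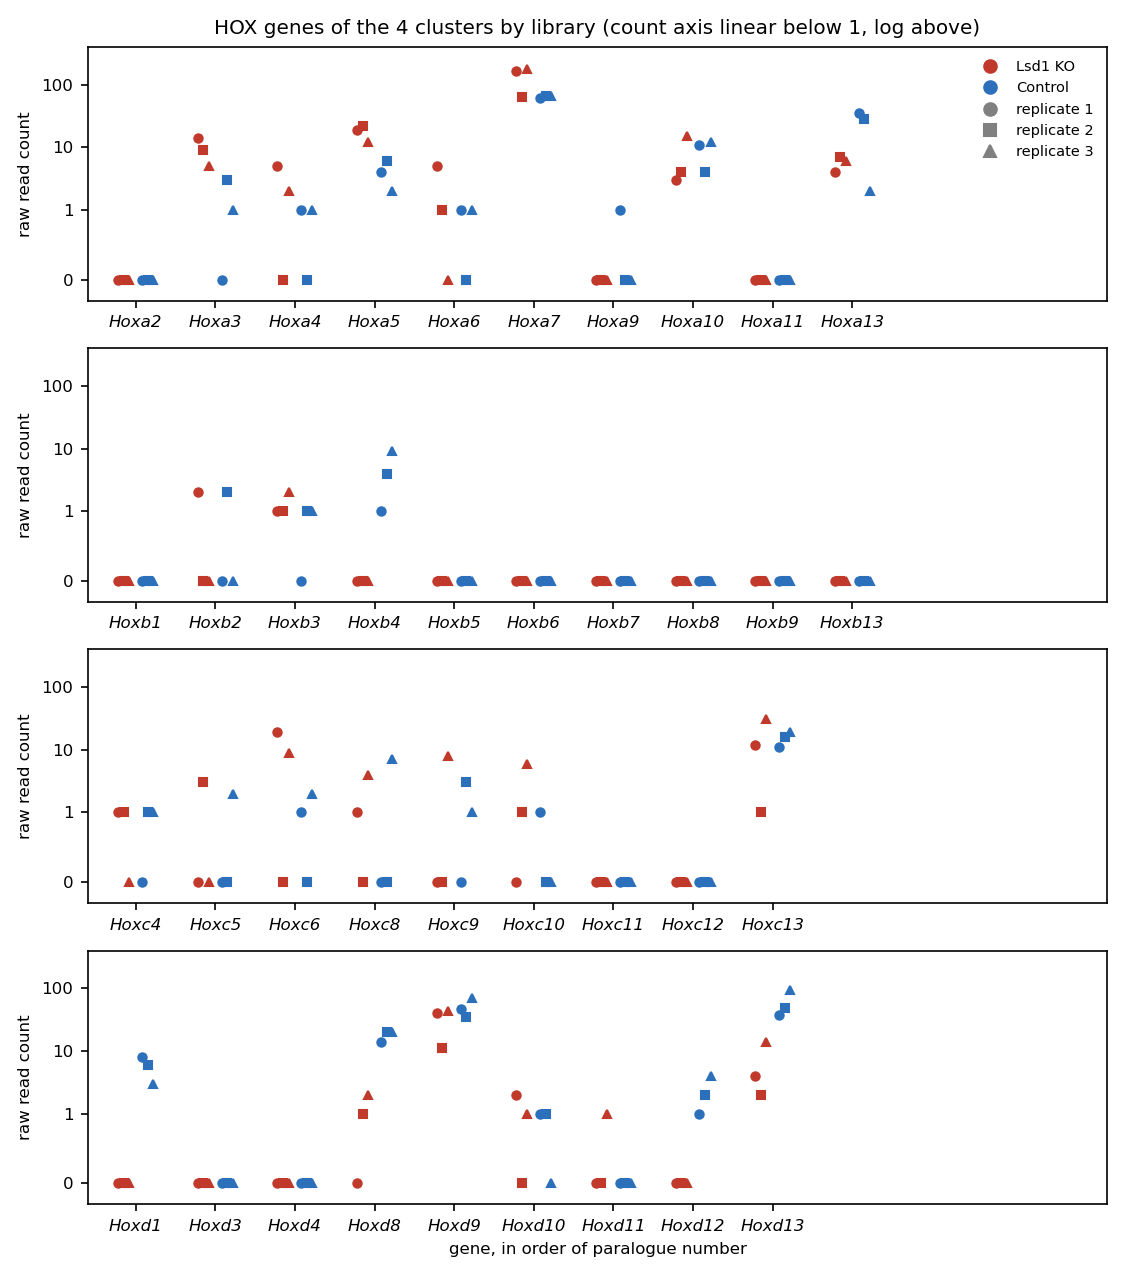
Raw read counts (vertical axis, linear below 1 and log above) of HOX genes of the HoxA, HoxB, HoxC and HoxD clusters, from top to bottom, in the 3 Lsd1 KO libraries (left points) and the 3 Control libraries (right points). Hoxb4, Hoxd1, Hoxd8, Hoxd12 and Hoxd13 are lower in every Lsd1 KO library than in any Control library, Hoxa3 and Hoxa5 are higher, and 7 of 10 HoxB genes lie at 0 throughout. Of those without overlap, Hoxb4, Hoxd1, Hoxd12 and Hoxa3 were too low for the test. Over all genes tested, 38.7% did not overlap, a share that does not cover genes too low for the test. Of the 94 untested members, 3 were higher and 4 lower without overlap.

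Promoters of developmental factors are known to be rich in CpG dinucleotides. RefSeq promoter sequences (GRCm38.p6) matched 83 of 130 transcription factor genes. In the 250 bases before the start, these held a median of 14 CpG, against 6 in 27025 promoters of all genes, of which 91.7% hold at least 1. The 43 matched members below 1 CPM in all libraries had a median of 12 CpG and the 19 at 1 CPM or more in all libraries a median of 15. Those of the 3 called HOX genes and of Sox8, the member with the smallest adjusted p among those that fell, are given to show how far they differ in CpG, 5′ to 3′ on the strand of the gene, with each CG in capitals. The letters CG read the same on both strands and do not overlap each other. Each sequence matched NCBIM37 (mm9) at a single place, which is given.
Hoxa5 (chr6:52154587-52154836, minus strand): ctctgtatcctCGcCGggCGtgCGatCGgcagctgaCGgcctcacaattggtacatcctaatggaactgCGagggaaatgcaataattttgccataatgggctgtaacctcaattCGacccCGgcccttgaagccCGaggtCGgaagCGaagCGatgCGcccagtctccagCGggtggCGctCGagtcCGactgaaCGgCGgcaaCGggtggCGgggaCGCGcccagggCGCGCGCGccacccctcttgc
Hoxd13 (chr2:74506032-74506281, plus strand): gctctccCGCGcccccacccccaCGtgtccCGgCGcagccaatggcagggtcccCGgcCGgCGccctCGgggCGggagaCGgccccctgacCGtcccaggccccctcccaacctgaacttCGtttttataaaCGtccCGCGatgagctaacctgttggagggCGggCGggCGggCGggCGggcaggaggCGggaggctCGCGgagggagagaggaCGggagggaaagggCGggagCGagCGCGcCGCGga
Hoxd8 (chr2:74542422-74542671, plus strand): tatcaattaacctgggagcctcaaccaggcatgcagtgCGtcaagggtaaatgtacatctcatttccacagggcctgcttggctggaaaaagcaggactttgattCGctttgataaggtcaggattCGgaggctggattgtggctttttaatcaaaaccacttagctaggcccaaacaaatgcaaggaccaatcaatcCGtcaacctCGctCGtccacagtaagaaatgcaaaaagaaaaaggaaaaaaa
Sox8 (chr17:25707632-25707881, minus strand): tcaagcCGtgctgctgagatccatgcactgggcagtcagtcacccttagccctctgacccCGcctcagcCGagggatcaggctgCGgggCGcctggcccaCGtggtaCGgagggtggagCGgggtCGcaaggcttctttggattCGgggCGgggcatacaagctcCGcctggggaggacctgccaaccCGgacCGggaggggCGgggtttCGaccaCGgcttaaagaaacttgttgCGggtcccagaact
The promoters differ among themselves: that of Hoxa5, which was higher in Lsd1 KO, holds 28 CpG, whereas those of Hoxd13, Hoxd8 and Sox8, which were lower, hold 31, 6 and 18. The other called members with an entry, all higher in Lsd1 KO, hold 19 (Gata3), 9 (Sox6, the first of 6 listed starts) and 7 (Tbx19). Counts above and below the members' median of 14 stood in both directions. None of the 7 lay below the median of 6 over all promoters. These counts describe 7 sequences and bear no test.

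Of the PAX genes, Pax3 rose. It acts in neural crest and muscle precursors. It had 89, 23 and 44 counts in Lsd1 KO and 0, 3 and 3 in Control, which is 4.39 ± 2.56 CPM in Lsd1 KO, against 0.166 ± 0.145 CPM in Control. Every Lsd1 KO library was above every Control library (log2 4.62 ± 0.81, 24.5-fold, edgeR adjusted p = 0.00244). On mm9 it spans 78097842 to 78193709 of chromosome 1. Pax2, a kidney and eye factor, had the highest level per kilobase of exon among the PAX genes and was at 39.8, 18.6 and 32.4 CPM in Lsd1 KO, against 25.4, 29.4 and 39.1 CPM in Control. Its log2 fold change was -0.05 ± 0.27 (edgeR adjusted p = 0.920), with both genotypes spread over the same range. Pax6, an eye and brain factor, was at 0.160, 1.71 and 0.539 CPM in Lsd1 KO, against 1.76, 1.81 and 1.72 CPM in Control. Its genotypes did not overlap, by a narrow margin in the second Lsd1 KO library, and it did not pass (log2 -1.13 ± 0.75, edgeR adjusted p = 0.304). The log2 value was -2.34 without Lsd1 KO replicate 2 (adjusted p = 0.0696) and -0.61 without Lsd1 KO replicate 1 (adjusted p = 0.645). Elp4 overlaps it on the opposite strand, with 358 counts in Lsd1 KO and 642 in Control. The remaining PAX genes were too low for the test.

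Of the T-box genes, Tbx5 and Tbx19 rose. Tbx5, which patterns the heart and forelimb, was at 13.6, 4.15 and 14.8 CPM in Lsd1 KO, against 1.11, 1.21 and 2.26 CPM in Control. Lsd1 KO replicate 2 was the lowest of its genotype but still above all Control libraries (log2 2.83 ± 0.52, 7.11-fold, edgeR adjusted p = 0.00290). Tbx5 spans 120284672 to 120335227 on mm9 chromosome 5, and Tbx3 spans 120120678 to 120134733 of it. Tbx3 had 35, 27 and 58 counts in Lsd1 KO and 50, 72 and 57 in Control, with overlap, and did not pass (log2 -0.54 ± 0.41, edgeR adjusted p = 0.379). Tbx19, a pituitary factor spanning 167067986 to 167090904 on mm9 chromosome 1, was at 29.7, 30.3 and 22.7 CPM in Lsd1 KO, against 16.3, 18.2 and 15.9 CPM in Control. The genotypes did not overlap (log2 0.72 ± 0.22, edgeR adjusted p = 0.0339), and Tbx19 lost the call in 5 of 6 fits with a library left out (adjusted p up to 0.111) and with the replicate block (adjusted p = 0.0596).

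Tbx4, a hindlimb factor, had the highest level per kilobase of exon among the T-box genes. It was at 93.7, 90.6 and 77.7 CPM in Lsd1 KO, against 107, 126 and 141 CPM in Control. The genotypes did not overlap, and the difference was just short of the threshold (log2 -0.51 ± 0.18, edgeR adjusted p = 0.0565). It passed with DESeq2 (adjusted p = 0.0384) and without Control replicate 1 (adjusted p = 0.0452).

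The GATA genes moved in opposite directions. Gata3, a factor of the trophectoderm and of T cells, was at 29.6, 35.6 and 32.7 CPM in Lsd1 KO, against 15.7, 15.3 and 23.8 CPM in Control. All Lsd1 KO libraries were higher (log2 0.84 ± 0.23, edgeR adjusted p = 0.0221), but the call was lost when Lsd1 KO replicate 2 or 3, or Control replicate 1 or 2, was left out (adjusted p up to 0.0932). It spans 9778705 to 9811661 on mm9 chromosome 2. Gata4, a factor of the heart and of granulosa cells, was at 5.85, 2.98 and 7.72 CPM in Lsd1 KO, against 14.98, 17.0 and 35.1 CPM in Control. Here all Lsd1 KO libraries were lower, although Control replicate 3 was far above the other Control libraries (log2 -2.02 ± 0.41, 4.05-fold, edgeR adjusted p = 0.00488). Without that library the log2 fold change was -1.55 and the call held. Gata4 spans 63817759 to 63890529 on mm9 chromosome 14. Gata6, its relative in endoderm and granulosa cells, was at 1.20, 0.631 and 4.04 CPM in Lsd1 KO, against 1.66, 1.36 and 1.45 CPM in Control, with overlap (edgeR adjusted p = 0.718). The blood factors Gata1 and Gata2 had at most 3 counts in any library.

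The SOX genes held the members with the smallest adjusted p in each direction. Sox6, which acts in cartilage, red cells and neurons, was at 31.3, 36.8 and 33.3 CPM in Lsd1 KO, against 6.75, 5.05 and 5.78 CPM in Control. The replicates of each genotype lay close together and far from the other genotype (log2 2.53 ± 0.24, 5.77-fold, edgeR adjusted p = 4.57e-05). Sox6 spans 122614858 to 123182258 on mm9 chromosome 7. Sox5, the close relative of Sox6 with which it acts in cartilage, was at 3.56 ± 1.34 CPM in Lsd1 KO, against 2.02 ± 0.774 CPM in Control and did not pass (log2 0.82 ± 0.52, edgeR adjusted p = 0.281). Sox8, of the group of Sox9 that acts in Sertoli cells and neural crest, was at 7.78, 4.87 and 7.99 CPM in Lsd1 KO, against 23.4, 28.9 and 33.5 CPM in Control. The highest Lsd1 KO value was well below the lowest Control value (log2 -2.05 ± 0.27, 4.15-fold, edgeR adjusted p = 4.93e-04). Sox8 spans 25702837 to 25707631 on mm9 chromosome 17.

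Sox15 was at 12.9, 13.2 and 27.1 CPM in Lsd1 KO, against 28.0, 28.8 and 41.2 CPM in Control, without overlap, and did not pass (log2 -0.88 ± 0.30, edgeR adjusted p = 0.0535). It passed with DESeq2, with limma-voom, without the low-count filter and with the replicate block (adjusted p 0.0151 to 0.0355), and without Lsd1 KO replicate 3 (adjusted p = 0.0105). Mpdu1 overlaps it on the opposite strand and had at most 18 counts in a library. Sox12 did not pass either, at 4.04 ± 0.530 CPM in Lsd1 KO, against 7.15 ± 1.85 CPM in Control (edgeR adjusted p = 0.121). Below the test, Sox13 had 5, 0 and 1 counts in Lsd1 KO and 20, 9 and 7 in Control, whereas Sox18, an endothelial factor, had 20, 9 and 37 counts in Lsd1 KO and 7, 1 and 2 in Control. The pluripotency factor Sox2 had 3, 8 and 6 counts in Lsd1 KO and 4, 13 and 29 in Control.

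The FOX genes made up most of what these families contribute to the oocyte transcripts: 87.2% to 90.7% of the members' summed CPM in Lsd1 KO and 88.1% to 89.4% in Control. These are shares of reads, not scaled for gene length. None of the 17 tested symbols was called by edgeR, whereas 1 was higher and 2 were lower at an unadjusted p under 0.05. DESeq2 called 0 higher and 2 lower, Foxo3 and Foxn2, and limma-voom called none. Foxj3 alone held 38.0% to 42.0% of that sum in Lsd1 KO and 35.8% to 40.9% in Control, at 984, 1199 and 1030 CPM in Lsd1 KO, against 1044, 941 and 1527 CPM in Control. Its genotypes overlapped (log2 -0.13 ± 0.21, edgeR adjusted p = 0.695). Per kilobase of annotated exon, the level of Foxj3 was 99.1 CPM in Lsd1 KO, against 108 CPM in Control, and the level of Foxo1, the next FOX gene on that scale, was 71.6 CPM in Lsd1 KO, against 85.0 CPM in Control.

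The FOXO factors act downstream of insulin and KIT signalling, and AKT holds them out of the nucleus. Foxo1 was at 398, 441 and 354 CPM in Lsd1 KO, against 394, 423 and 599 CPM in Control, and did not pass (log2 -0.25 ± 0.20, edgeR adjusted p = 0.399). Foxo3, named here after its values were seen, was at 151, 170 and 146 CPM in Lsd1 KO, against 184, 216 and 334 CPM in Control. All Lsd1 KO libraries were lower, and the adjusted p of 0.05001 from edgeR was just above the threshold (log2 -0.65 ± 0.22). It passed with library totals, with DESeq2, with no low-count filter and without Control replicate 1 (adjusted p 0.0216 to 0.0447), and did not in the other 5 fits with a library left out (adjusted p up to 0.161). Foxn2 was similar, at 163, 192 and 146 CPM in Lsd1 KO, against 251, 205 and 253 CPM in Control (log2 -0.50 ± 0.18, edgeR adjusted p = 0.0624). It passed with DESeq2 (adjusted p = 0.0390) and without Lsd1 KO replicate 2 (adjusted p = 0.0443). Foxo4 had at most 3 counts in any library, and Foxo6 had 9, 9 and 6 counts in Lsd1 KO and 25, 1 and 6 in Control.

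Other FOX genes did not pass the test either. Foxm1, which drives genes of mitotic entry, was at 193 ± 9.48 CPM in Lsd1 KO, against 190 ± 39.4 CPM in Control, and Foxr1 was at 42.3 ± 4.76 CPM in Lsd1 KO, against 45.6 ± 9.43 CPM in Control. Foxk1, Foxk2, Foxn3, Foxj2, Foxp1 and Foxp2 had log2 fold changes between -0.17 and 0.52 with adjusted p of 0.352 or more by edgeR. Foxk2 and Foxp1 overlap Narf and Eif4e3 on the same strand, both of which fell (log2 -0.96 and -1.05). Foxl2 was at 2.41, 1.53 and 6.01 CPM in Lsd1 KO, against 2.03, 0.301 and 0.361 CPM in Control. Control replicate 1 lay within the Lsd1 KO range, and Foxl2 did not pass (log2 1.89 ± 0.79, edgeR adjusted p = 0.106). The log2 value was 3.26 without that library (adjusted p = 0.0321) and 1.16 without Lsd1 KO replicate 3 (adjusted p = 0.413). Its neighbour Foxl2os had 16, 3 and 52 counts in Lsd1 KO and 5, 12 and 1 in Control. Foxi3 varied widely within each genotype, with 141, 2 and 25 counts in Lsd1 KO and 9, 0 and 32 in Control.

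Partners and regulators of these families were counted from lists, to be read against the 11.0% of all genes tested that were higher and the 10.3% that were lower. Of 7 tested HOX cofactors, 1 was higher and 2 were lower: the homeodomain partner Meis2 was at 264, 312 and 288 CPM in Lsd1 KO against 751, 581 and 776 CPM in Control (log2 -1.29 ± 0.18, edgeR adjusted p = 6.71e-04), and Pbx2 fell (-0.74 ± 0.21). Of 4 tested GATA cofactors, 1 was higher, the blood factor Tal1, at 3.97 ± 0.726 CPM in Lsd1 KO, against 0.372 ± 0.370 CPM in Control (log2 3.38 ± 0.77, and 4.23 without Control replicate 1). Of 14 genes of the kinase pathway that controls FOXO proteins, 1 was higher and 2 were lower. The kinase subunit Pik3ca fell (log2 -0.67 ± 0.19), and the kinase Sgk3 rose (2.05 ± 0.55).

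Among silencing and activating complexes, 1 of 11 tested genes of Polycomb complex PRC2 was higher and 1 lower, and 1 of 18 of PRC1 was higher and 4 lower, where 11.0% of all genes tested were higher and 10.3% lower. The PRC1 subunit Bmi1 was at 314, 345 and 326 CPM in Lsd1 KO, against 574, 567 and 722 CPM in Control (log2 -0.92 ± 0.17, edgeR adjusted p = 0.00340). Cbx2, which reads the PRC2 mark, fell (-0.76 ± 0.19), Pcgf3 rose (0.96 ± 0.24), and in PRC2 Jarid2 fell (-0.80 ± 0.22) and Phf1 rose (0.53 ± 0.17). Of 13 tested genes of the activating MLL complexes, 2 were higher and 3 lower, with Ash2l (1.02 ± 0.19) and Dpy30 (0.91 ± 0.23) higher and Cxxc1 (-0.71 ± 0.21) lower. Median log2 fold changes were 0.27 for HOX cofactors, 0.50 for GATA cofactors, -0.30 for the FOXO pathway, -0.18 for PRC2, -0.42 for PRC1 and -0.24 for MLL genes, beside -0.01 over all genes tested. When a single library was left out, Meis2, Tal1, Bmi1 and Ash2l kept the call in all 6 fits, and Pbx2, Pik3ca, Sgk3, Jarid2, Phf1, Cbx2, Pcgf3, Dpy30 and Cxxc1 lost it in 1 or more.

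A list of 108 other developmental factors, mostly homeobox genes, was counted for comparison. As in the 6 families, most were silent: 70 (64.8%, beside 38.5% of all symbols) were below 1 CPM in all libraries, and 28 had 0 counts throughout. Of 25 that were tested, 2 were higher and 8 lower, where 11.0% of all genes tested were higher and 10.3% lower, and the median log2 fold change was -0.49, beside -0.01 over all genes. Isl2, named after its values were seen, was among those that rose (log2 1.69 ± 0.29). The forebrain factors Otx1 and Emx2 and the posterior homeobox gene Evx1 had the smallest adjusted p. Otx1 was at 3.53, 8.48 and 5.39 CPM in Lsd1 KO, against 30.5, 32.8 and 46.4 CPM in Control (log2 -2.66 ± 0.32, edgeR adjusted p = 2.59e-04). Emx2 was at 10.5, 5.59 and 13.6 CPM in Lsd1 KO, against 56.6, 40.8 and 58.1 CPM in Control (log2 -2.39 ± 0.30), and Evx1 at 5.53, 13.9 and 7.81 CPM in Lsd1 KO, against 38.7, 51.1 and 29.4 CPM in Control (log2 -2.13 ± 0.33). None of these 3 had overlapping genotypes, which adds no support since they were picked by adjusted p.

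Markers of neighbouring cells were counted because Foxl2, Gata4, Sox17 and Sox18 are also expressed there. Calls in these short lists are to be read against the 11.0% of all genes tested that were higher and the 10.3% that were lower. Of 11 tested granulosa and cumulus markers, 3 were higher and 2 lower, and their summed level was 461 to 588 CPM in Lsd1 KO, against 230 to 316 CPM in Control. In Lsd1 KO most of that sum was Cyp19a1, at 324 ± 82.8 CPM in Lsd1 KO, against 36.8 ± 11.0 CPM in Control. Gata4 was among the 2 lower markers, at 5.52 ± 2.39 CPM in Lsd1 KO, against 22.4 ± 11.1 CPM in Control. The granulosa markers Amh and Fshr were at 0.481 to 5.48 CPM in Lsd1 KO and at 0 to 1.81 CPM in Control. Blood and immune markers had no call in 8 tested by edgeR or limma-voom, 1 higher by DESeq2, and 2 higher at an unadjusted edgeR p under 0.05, and their sum was 9.83 to 134 CPM in Lsd1 KO, against 5.80 to 38.4 CPM in Control, with the globins Hbb-b1 and Hba-a1 at 0 in all libraries. Of 4 tested theca and stroma markers 1 was higher, with sums of 10.2 to 14.8 CPM in Lsd1 KO, against 5.20 to 8.51 CPM in Control and Insl3 at 0. Of 3 tested endothelial markers 1 was higher, with sums of 106 to 123 CPM in Lsd1 KO, against 70.7 to 86.3 CPM in Control. Within that list Tek and Pecam1 made up most of the sum, whereas Cdh5 had 0 counts in Lsd1 KO and at most 0.0903 CPM in Control. Median log2 fold changes of the tested markers were 1.36 for granulosa and cumulus, 1.70 for blood and immune, 0.49 for theca and stroma and 0.58 for endothelium, beside 0.03 for oocyte markers and -0.01 for all genes tested, so the medians of the 4 other lists lay toward Lsd1 KO. The granulosa, theca and endothelial sums did not overlap between genotypes. For granulosa this rests largely on Cyp19a1, so it does not describe the list as a whole. Within Lsd1 KO, replicate 2 had the lowest immune sum and the highest granulosa sum. In it 20 of the 40 tested members had their lowest Lsd1 KO value, against 10 each in replicates 1 and 3. Tbx5, Pax3, Gata4 and Hoxa7 were among the 20. The share over all genes tested was not counted, so this is not shown to be particular to the members. Replicate 2 had counts in 15762 genes, against 16771 and 16815 in replicates 1 and 3. The part of neighbouring cells in the members' values was not tested.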

How the data were processed

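The deposited files hold raw read counts per gene symbol for each of 6 samples. Per the submitters' processing notes, the authors used CASAVA 1.8.2, TopHat2 2.0.7, HTSeq 0.5.3p9 and mm9. Their options, annotation and strand setting are not given in the sources used, so antisense neighbours cannot be told apart. Per the labels, oocytes were lysed directly and their amplified cDNA (NuGEN Ovation) went into TruSeq paired-end libraries. Samples were grouped by labelled genotype. Genes were kept with filterByExpr (minimum count 10), which left 12935, scaled by TMM and tested two-sided in edgeR 4.0.16 (R 4.3.3) by quasi-likelihood. Standard errors were derived from the fold change and the F statistic. Replicates differed by more than sampling noise (chi-square per degree of freedom 19.8 to 43.6 in pairs). Intervals and floors cover counting error only, and a floor of 3 counts covers that of the group at 0 alone. The series design text calls the samples biological replicates; how many females each came from is unknown, so p-values measure the spread between these samples.

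Positions and exon lengths were read from GENCODE M1 (NCBIM37, which is mm9) for 131 of 134 members with a unique entry. The members and lists were chosen with earlier results of these data known. Named were Kdm1a, all members past the threshold, the 3 most abundant of each family, tested members without overlap and with a log2 fold change beyond 1 in size, members separated at 1 CPM, and up to 3 called genes per list. Other members are given to complete clusters or families and were chosen after their values were seen. Alternatives were RLE, upper-quartile and library-total scaling, DESeq2 1.42.0, limma-voom (3.58.1), other filters and thresholds, a replicate block, thinning and leaving out each library. The fits were tested on simulated data. Setd1b was not matched in the files. Results of a few genes are not reported here.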

Additional observations from a re-analysis of the deposited data

How the results depend on the processing

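The number of members called higher was 6 and that called lower was 4. Higher calls were 3 at an adjusted p under 0.01 and 3 to 6 with a library left out, the lowest without Control replicate 2. Lower calls were 8 with DESeq2, 7 with no low-count filter and 4 to 6 with a library left out. With the filter removed, Sox18 was among those called higher and Hoxd1 among those called lower. Over all genes, 1421 were higher and 1329 lower. These were 676 and 497 at an adjusted p under 0.01, 945 and 625 past a log2 fold change of 1 in size, and 932 to 1466 and 638 to 1346 with a library left out. Higher calls were fewest without Control replicate 1, and lower calls came to 638 without Lsd1 KO replicate 1, 727 without replicate 3 of that genotype and 781 without Control replicate 2. Members below 1 CPM in every library were 76, 64 to 93 with limits of 0.5 and 2 CPM, and 77 to 79 with a library left out. Members separated at 1 CPM were 3, and 3 to 7 with a library left out. Leaving a library out can only keep or raise the numbers below and separated at 1 CPM.

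Replicate numbers are shared between genotypes, but nothing says that they pair the samples. Deviations of same-numbered samples correlated at -0.0099, 0.122 and -0.0067. With the replicate block, 1270 genes were higher and 1098 lower, and 4 members were higher and 5 lower.

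Signs turned only for members that did not pass. Pax2 was at log2 0.0072 with upper-quartile factors and at -0.27 to 0.18 with a library left out, turning positive without Lsd1 KO replicate 2 and, at 0.13, without Control replicate 3. Foxj3 was at -0.25 to 0.10 with a library left out, the highest without Control replicate 3. Gata6 was at -0.0161 with limma-voom and at -0.66 to 0.79 with a library left out, the lowest without Lsd1 KO replicate 3. The cause was not tested. Of 574 refits of 41 named genes, 493 kept direction and side of the threshold, 58 lost the call and 17 gained it. Depth limits the 94 untested members, for which a difference of a few counts was not detectable.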
